A study of Homo sapiens with 4 samples.

Results

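The genes described here are NFE2L2, which encodes the transcription factor NRF2, its inhibitor KEAP1, and 7 of its best known target genes: GCLC, GCLM, TXNRD1, SRXN1, NQO1, HMOX1 and ME1. They were picked by symbol from the deposited tables, and all 9 were found among 60676 genes. NRF2 drives the oxidative stress programme of the cell. KEAP1 holds it in the cytoplasm and hands it to the CUL3 ubiquitin ligase for degradation, and oxidants or electrophiles stop this. NRF2 then pairs with small MAF proteins and binds antioxidant response elements (AREs) near its targets. The programme is tied to autophagy through SQSTM1 (p62), a receptor that binds both LC3 and KEAP1.

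RNA came from U2OS, an established human osteosarcoma line, with no treatment named in the labels, by native nuclear RNA immunoprecipitation and sequencing, in which proteins are pulled down from nuclear lysate without crosslinking and the RNA that comes with them is sequenced. The labels give the molecule as polyA RNA and a SMART-Seq v4 low-input kit for the libraries. There were 4 libraries: a pull-down with an antibody to LC3B, a pull-down with IgG as negative control, and the LC3B and IgG inputs, for which the labels list no antibody. Below, “with LC3B” and “with IgG” stand for the pull-downs. As each group is a single library, replicate spread is unknown and no p-values are given. The label U2OS was checked against 8 mesenchymal and osteoblast markers, of which 5 (VIM, COL1A1, SPARC, RUNX2 and ALPL) had reads in every library. SP7 had 0 reads in every library, and BGLAP and COL1A2 had at most 3. Of 8 markers of other cell types, EPCAM and SYP had reads in every library, with EPCAM between 15.0 and 25.8 CPM, while CD3E had 0 reads in all. The 8 together summed to 22.1 CPM with LC3B and 27.9 CPM with IgG, against 20.4 and 24.3 CPM in the LC3B and IgG inputs, and their part in the results was not tested.

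Levels are given as CPM, read counts scaled to the library total without mitochondrial genes. These totals lay between 8404123 and 10375786 reads, and 3 reads, taken as the floor for a library at 0, stood for 0.289 to 0.357 CPM. Mitochondrial genes held 0.774% of the LC3B pull-down and 1.76% of the IgG pull-down, against 20.8% and 22.8% of the LC3B and IgG inputs. The IgG pull-down stood apart: reads fell on 14440 genes in it, and 3043 of the genes tested had 0 reads, against 54 to 62 in the other libraries. In the others reads fell on 22947 to 23915 genes. Each of the 9 genes is therefore also given as the LC3B pull-down over its own input, which does not use it. All 9 genes passed the filter of a mean of 1 CPM, as did 15431 genes in all.

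A fold is a ratio of CPM with an exact binomial 95% interval, which covers counting error only. Calls need the whole interval to lie at or above 2 (higher) or at or below 0.5 (lower).

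An ARE core near the start site is one feature that several of these genes share, so the matches are shown here. The motif TGACNNNGC was searched on both strands of RefSeq windows (build GRCh38.p14) from 250 bases before to 50 bases after each annotated start. Windows were matched by symbol for 8 genes (not HMOX1), 11 windows in all, and 5 windows of 4 genes held the motif, against 13.3% of 35116 windows of all genes. In the lines below the motif is in capitals, on the strand of the gene and 5′ to 3′, so that a match on the other strand reads as its reverse complement. Matches did not overlap each other.
ME1, chr6:83431170-83431198, minus strand: tctcctgccaTGACTCAGCgcttctcgca
GCLM, chr1:93909446-93909474, minus strand: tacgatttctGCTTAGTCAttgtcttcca
KEAP1, chr19:10502784-10502812, minus strand: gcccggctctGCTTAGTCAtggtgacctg
KEAP1, chr19:10502807-10502835, minus strand: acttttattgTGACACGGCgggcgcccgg
TXNRD1, chr12:104215670-104215698, plus strand: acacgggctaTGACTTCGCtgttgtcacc
TXNRD1, chr12:104286920-104286948, plus strand: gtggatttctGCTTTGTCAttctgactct

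The ME1 match starts 137 bases before its start site and the GCLM match 34 bases before. The KEAP1 matches lie 31 and 54 bases before the downstream of its annotated starts, and the TXNRD1 matches 99 and 102 bases before its own starts. TXNRD1 and ME1 each held 1 further match beside the start that is not shown. A match describes the letters only. The windows of NFE2L2, GCLC, SRXN1 and NQO1 held no match. Sequence outside the windows was not searched, so a lack of a match does not mean that a gene has no ARE. Of the 4 genes with a match, KEAP1 and ME1 were called in the comparisons with the IgG pull-down below, and GCLM and TXNRD1 were not.

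Among the targets and their regulators, 0 of 9 genes were called with LC3B over input, and 4 were called lower with IgG over input. Uncalled genes were not all at 1. Their folds over input ran from 0.549 (NFE2L2) to 2.07 (KEAP1) with LC3B, and from 0.622 (NFE2L2) to 1.53 (SRXN1) with IgG. With LC3B over input, 0 of 9 genes were called higher (1.4% of all genes tested) and 0 lower (4.48%). With IgG over input, 4 of 9 were lower (33.6% of all genes), namely HMOX1, ME1, KEAP1 and GCLC, and 0 were higher (9.69%). The same 4 were called higher with LC3B than with IgG, 4 of 9 or 44.4% (33.8% of all genes), with 0 lower (9.45%). Over 9 genes these shares lie near the background. What part the low yield of genes with IgG has in them was not tested. Of the 5219 genes called higher over the IgG pull-down, 87.0% were also lower with IgG than in its input, and 87.6% of the genes lower there were also higher with LC3B. These comparisons share the IgG pull-down.

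**Figure D1:**
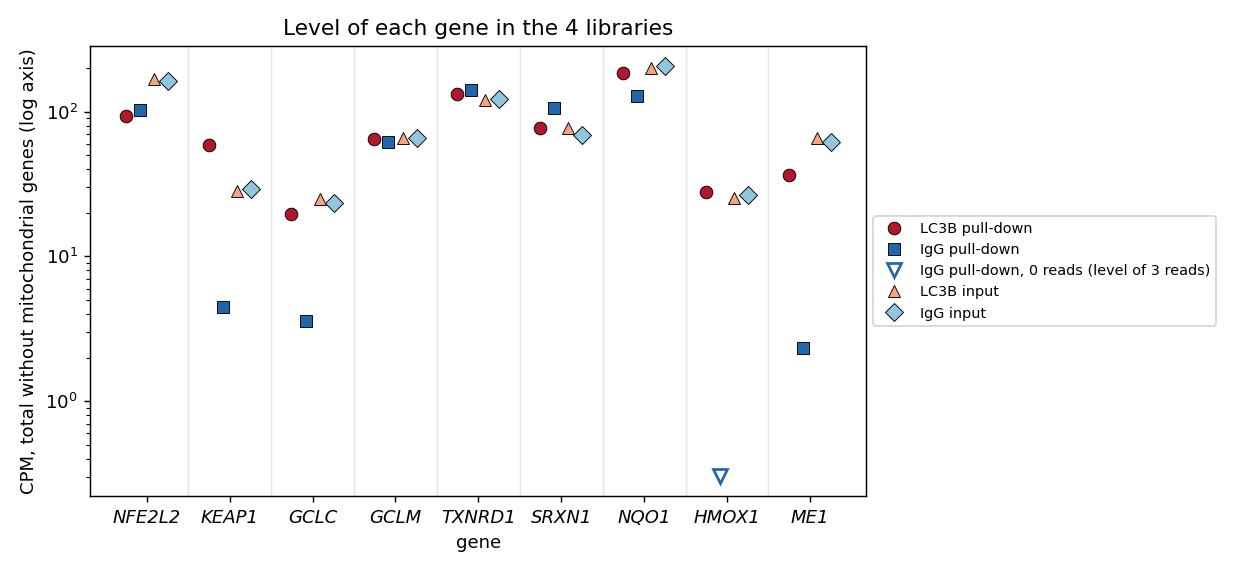
Level of the 9 genes in CPM (log axis, total without mitochondrial genes) in the LC3B pull-down, the IgG pull-down, the LC3B input and the IgG input, 1 point per library and no error bars, since each group is 1 library. KEAP1, GCLC and ME1 with IgG lie at 4.48, 3.56 and 2.34 CPM, far below their other points, and HMOX1 has 0 reads there (open triangle at the level of 3 reads).

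Over the LC3B input, the 9 genes spanned a fold of 0.549 to 2.07, with a median log2 ratio of CPM + 0.5 of -0.01 against 0.01 over all genes. Over the IgG input, the IgG pull-down had a median of -0.68 against -0.43 over all genes, and its range was far wider. Between the pull-downs the median was 0.53, against 0.41 over all genes. With HMOX1 at its floor of 3 reads these medians did not change. Because shares of a bulk library are measured, fewer cells with an RNA and less of it per cell cannot be told apart. A fold over input compares the share of an RNA in the pull-down with that in the input, not levels between cells. Together the 9 genes took 0.0696% of the LC3B pull-down (95% exact interval 0.0680 to 0.0712) and 0.0548% of the IgG pull-down (0.0533 to 0.0563). They took 0.0776% of the LC3B input (0.0757 to 0.0795) and 0.0768% of the IgG input (0.0749 to 0.0787).

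NFE2L2 and KEAP1, the regulators, differed from each other. NFE2L2 (ENSG00000116044, chromosome 2, 177227595 to 177392697, minus strand) had 964 reads or 92.9 CPM with LC3B, 1003 or 102 CPM with IgG, 1445 or 169 CPM in the LC3B input and 1380 or 164 CPM in that of IgG. It was thus below the inputs in both pull-downs by similar folds. Its fold over input was 0.549 (0.506 to 0.596) with LC3B and 0.622 (0.573 to 0.675) with IgG, neither called. Between the pull-downs it stood at 0.910 (0.832 to 0.995). Among all genes tested, the NFE2L2 ratio over the LC3B input lay at percentile 12.8.

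KEAP1 (ENSG00000079999, chromosome 19, 10486125 to 10503558, minus strand), the sensor that represses NRF2, had 609 reads or 58.7 CPM with LC3B and 44 reads or 4.48 CPM with IgG. The inputs held 242 reads or 28.3 CPM (LC3B) and 246 reads or 29.3 CPM (IgG). KEAP1 was highest with LC3B and lowest with IgG, with both inputs in between. Its fold over the LC3B input was 2.07 (1.78 to 2.41), the highest of the 9 genes and at percentile 94.7 of all genes, but its lower bound missed 2. With totals over all genes, mitochondrial ones included, this fold became 2.59 and was called higher. With IgG over input KEAP1 fell to 0.153 (0.108 to 0.212), and between the pull-downs it was 13.1-fold higher with LC3B (9.64 to 18.2).

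The size of the KEAP1 difference depended on the table used. The authors' deposited TPM values divide reads by transcript length, and KEAP1 had 9.11 reads per TPM with IgG against 19.5 with LC3B, 18.6 in the LC3B input and 20.4 in that of IgG. For NQO1 this quotient lay between 8.39 and 8.67 in all 4 libraries. It varied more for TXNRD1 (28.8 to 38.0), GCLC (28.1 to 35.1) and GCLM (20.3 to 25.0). For SRXN1 (25.6 to 26.3), ME1 (32.2 to 33.0) and NFE2L2 (22.1 to 23.1) it varied little. What lengths were used for KEAP1 is not given in the sources used here. From TPM rescaled without mitochondrial genes, the KEAP1 fold was 6.41 between the pull-downs and 0.311 for IgG over input, point folds with no interval. Both stayed beyond the bounds of 2 and 0.5.

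**Figure D2:**
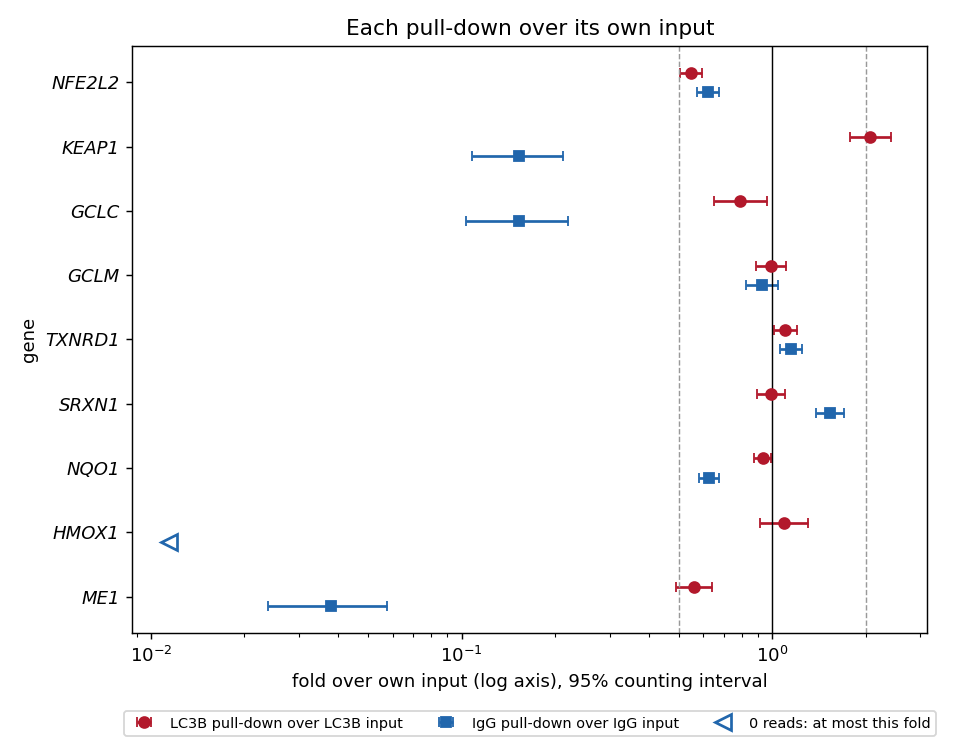
Fold of each pull-down over its own input (log axis) for the 9 genes, with LC3B above IgG in each row, bars for the 95% counting interval and dashed lines at 0.5 and 2. The LC3B points span 0.549 to 2.07, while HMOX1 (open triangle, 0 reads, at least 87.7-fold lower), ME1, KEAP1 and GCLC lie left of 0.5 with IgG.

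A pair of subunits forms glutamate-cysteine ligase, which carries out the first step of glutathione synthesis, and their mRNAs differed with IgG. The catalytic subunit GCLC (ENSG00000001084, chromosome 6, 53497341 to 53616970, minus strand) had 204 reads or 19.7 CPM with LC3B and 35 reads or 3.56 CPM with IgG. It had 213 reads or 24.9 CPM in the LC3B input and 196 reads or 23.3 CPM in the IgG input. Only the IgG pull-down was low. GCLC was 5.52-fold higher with LC3B than with IgG (3.84 to 8.14), at 0.789 of the LC3B input (0.648 to 0.960) and at 0.153 of the IgG input with IgG (0.103 to 0.220). The call between the pull-downs was lost with a bound of 4.

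The modifier subunit GCLM (ENSG00000023909, chromosome 1, 93885199 to 93909456, minus strand) showed no such loss. It had 676 reads or 65.2 CPM with LC3B, 603 or 61.4 CPM with IgG, 562 or 65.8 CPM in the LC3B input and 557 or 66.3 CPM in that of IgG. All 4 values lay close together. Its folds were 1.06 (0.950 to 1.19) between the pull-downs, 0.990 (0.884 to 1.11) over the LC3B input and 0.926 (0.824 to 1.04) over the IgG input.

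The thioredoxin branch was recovered in every library. TXNRD1 (ENSG00000198431, chromosome 12, 104215779 to 104350307, plus strand), which reduces thioredoxin, had 1379 reads or 133 CPM with LC3B and 1377 or 140 CPM with IgG, against 1029 or 120 CPM in the LC3B input and 1026 or 122 CPM in that of IgG. By CPM both pull-downs lay slightly above the inputs, a direction that TPM rescaled without mitochondrial genes turned. Deposited TPM as given kept it, at 38.8 with LC3B against 31.1 in its input and 36.2 with IgG against 35.7 in its input. The folds over input were 1.10 (1.02 to 1.20) with LC3B and 1.15 (1.06 to 1.25) with IgG, and 0.948 (0.879 to 1.02) between the pull-downs. From TPM rescaled without mitochondrial genes, TXNRD1 had 39.1 TPM with LC3B and 36.9 with IgG, against 39.7 and 46.7 TPM in the LC3B and IgG inputs, which gives folds over input of 0.984 with LC3B and 0.790 with IgG, and 1.06 between the pull-downs. A long non-coding RNA on the opposite strand within TXNRD1, AC089983.1, had 444 reads with LC3B, 119 with IgG, 157 in the LC3B input and 181 in that of IgG. Whether counting used strand is not given in the sources used here, so reads of these overlapping genes may be mixed.

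SRXN1 (ENSG00000271303, chromosome 20, 646615 to 653370, minus strand), which repairs overoxidised peroxiredoxins, was highest with IgG. It had 797 reads or 76.8 CPM with LC3B, 1034 or 105 CPM with IgG, 661 or 77.4 CPM in the LC3B input and 578 or 68.8 CPM in that of IgG. Its fold over input was 0.993 (0.894 to 1.10) with LC3B and 1.53 (1.38 to 1.70) with IgG, neither called. Between the pull-downs it stood at 0.730 (0.665 to 0.801).

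NQO1 (ENSG00000181019, chromosome 16, 69706996 to 69726668, minus strand), a quinone reductase and a standard readout of NRF2 activity, had 1923 reads or 185 CPM with LC3B and 1262 or 128 CPM with IgG. The LC3B input held 1700 reads or 199 CPM and the IgG input 1727 or 205 CPM. The LC3B pull-down lay just below its input, though above it, at 1.17, with totals over all genes, and the IgG pull-down lay further below. The folds over input were 0.931 (0.872 to 0.995) with LC3B and 0.625 (0.581 to 0.673) with IgG, and 1.44 (1.34 to 1.55) between the pull-downs, all uncalled.

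HMOX1 (ENSG00000100292, chromosome 22, 35380361 to 35394207, plus strand), haem oxygenase, had 289 reads or 27.9 CPM with LC3B and 0 reads with IgG, against 218 reads or 25.5 CPM in the LC3B input and 225 or 26.8 CPM in that of IgG. The IgG pull-down alone lacked it. With 3 reads set in place of the 0, HMOX1 was 91.2-fold higher with LC3B than with IgG. By the same setting it was 87.7-fold lower with IgG than in its input. The exact intervals use the 0 itself. They start at 73.7 between the pull-downs and end at 0.0141 for IgG over input. Over the LC3B input the HMOX1 fold was 1.09 (0.912 to 1.31). Among all genes tested, the HMOX1 ratio lay at percentile 0.998 for IgG over input and at 99.2 between the pull-downs. A count of 0 with IgG was not rare in its band of level. Among 3568 genes of 10 to 30 CPM in the inputs, 590 (16.5%) had 0 reads with IgG, and 0 did in the other libraries. HMOX1 lies in the upper part of that band, and of the genes of 30 to 100 CPM 2.85% had 0 reads with IgG.

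ME1 (ENSG00000065833, chromosome 6, 83210402 to 83431051, minus strand), the cytosolic malic enzyme that supplies NADPH, had 380 reads or 36.6 CPM with LC3B and 23 reads or 2.34 CPM with IgG. It had 559 reads or 65.4 CPM in the LC3B input and 519 or 61.8 CPM in that of IgG, so both pull-downs lay below the inputs. Its fold was 15.6 between the pull-downs (10.3 to 25.0), 0.560 over the LC3B input (0.490 to 0.639) and 0.0379 over the IgG input (0.0238 to 0.0575). With NFE2L2 it was the lowest of the 9 genes over the LC3B input, at percentile 13.6 of all genes.

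The members differ in level, and the loss with IgG varied with level across all genes. KEAP1, GCLC and HMOX1 are among the 3568 genes of 10 to 30 CPM in the inputs, of which 35.9% were lower with IgG than in its input and 37.4% higher with LC3B than with IgG, and all 3 members were both. GCLM, SRXN1 and ME1 are among 3580 genes of 30 to 100 CPM, with 22.7% lower and 20.9% higher in these comparisons, and ME1 alone was both. NFE2L2, NQO1 and TXNRD1 are among 2301 genes of 100 CPM or more, with 12.4% lower and 8.56% higher, and 0 of the 3 were either. These bands were drawn after the values were seen. In the 30 to 100 CPM band 2.85% of genes had 0 reads with IgG, and in the highest band 0 genes did.

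**Figure D3:**
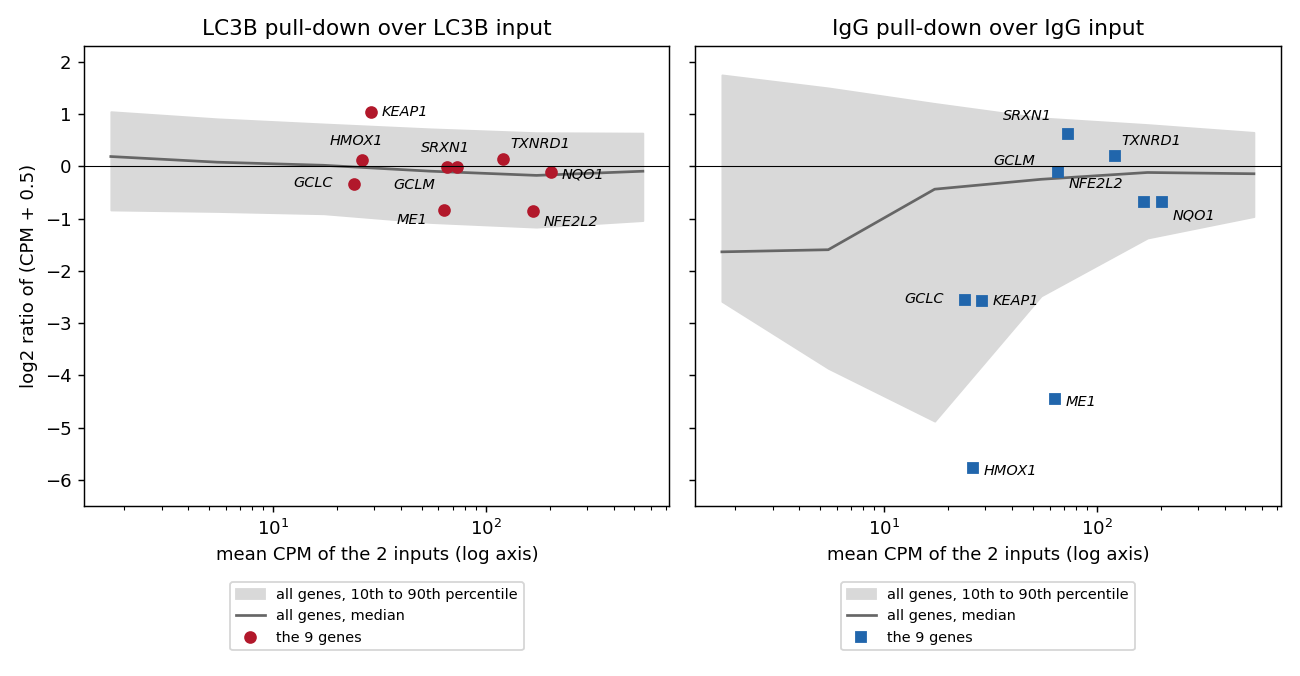
Log2 ratio of (CPM + 0.5) of each pull-down over its own input against the mean CPM of the inputs (log axis), LC3B left and IgG right, with the 9 genes as points and the median and the 10th to 90th percentiles of all genes, in bands of level, as a line and a grey area. With LC3B only KEAP1, at 1.04, lies outside the grey area, and with IgG HMOX1, at -5.77, and ME1, at -4.45, lie below it.

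Shares within a pair of genes do not depend on how libraries are scaled, and the pairs were picked after the values were seen. KEAP1 took 38.7% of the reads of KEAP1 and NFE2L2 with LC3B (95% exact interval 36.3 to 41.2) and 4.20% with IgG (3.07 to 5.60). In the inputs it took 14.3% (LC3B, 12.7 to 16.1) and 15.1% (IgG, 13.4 to 17.0). The KEAP1 share was thus above the inputs with LC3B and below them with IgG, with intervals that did not overlap those of the inputs. These intervals cover counting error only. Among the members, KEAP1 had the highest fold over the LC3B input (2.07) and NFE2L2 the lowest (0.549). The raised share with LC3B therefore reflects the NFE2L2 drop as well as the KEAP1 rise, and is not a test separate from those folds.

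GCLC took 23.2% of the reads of GCLC and GCLM with LC3B (20.4 to 26.1) and 5.49% with IgG (3.85 to 7.55). It took 27.5% in the LC3B input (24.4 to 30.8) and 26.0% in the IgG input (22.9 to 29.3). Here the LC3B pull-down and the inputs had overlapping intervals, and the IgG pull-down was apart. SRXN1 took 36.6% of the reads of SRXN1 and TXNRD1 with LC3B (34.6 to 38.7) and 42.9% with IgG (40.9 to 44.9), against 39.1% (36.8 to 41.5) and 36.0% (33.7 to 38.4) in the LC3B and IgG inputs.

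**Figure D4:**
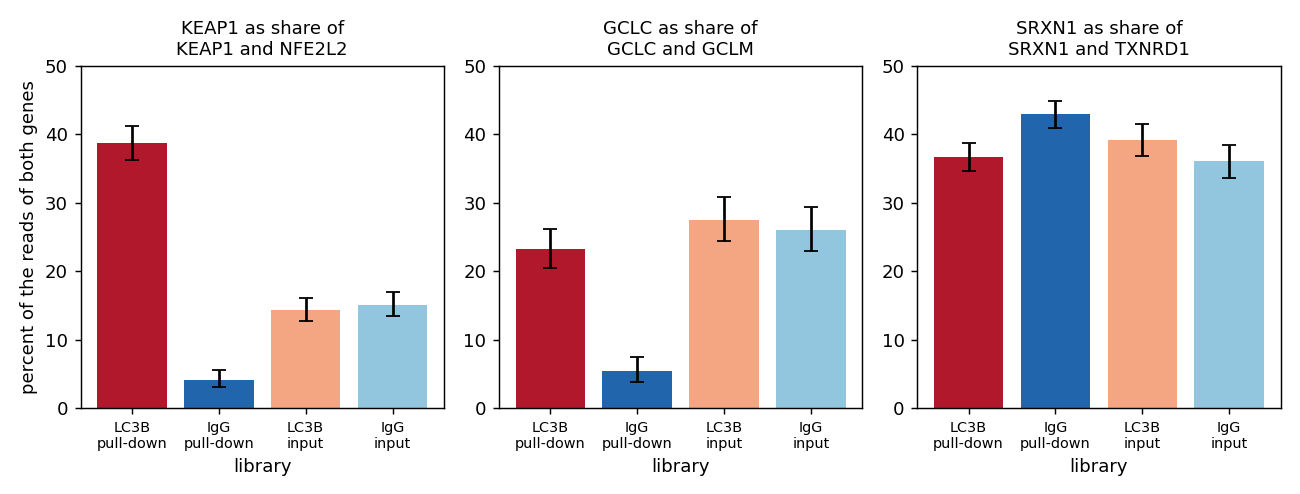
Percent of the reads of a pair of genes that fell on the first gene, for the LC3B pull-down, the IgG pull-down, the LC3B input and the IgG input, with bars for the value and whiskers for the exact 95% interval. The KEAP1 share is 38.7% with LC3B and 4.20% with IgG, on either side of the inputs.

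The inputs differed little from each other for these genes. Set against the IgG input, the LC3B input had 0 of 9 genes called higher (0.136% of all genes) and 0 lower (0.156%), with folds of 0.953 (HMOX1, 0.788 to 1.15) to 1.13 (SRXN1, 1.005 to 1.26). The SRXN1 interval was the only one of the 9 that left out 1. The input-corrected ratio, the fold over input with LC3B divided by that with IgG, called 4 of 9 higher (29.1% of all genes) and 0 lower (7.58%). KEAP1 had a ratio of 13.4 (9.42 to 19.1), ME1 of 14.5 (9.38 to 22.3) and GCLC of 5.10 (3.40 to 7.66). For HMOX1 the fitted ratio, with 0.5 added to each count, was 575 (35.7 to 9274). With 3 reads set in place of the 0 for IgG it was 95.7, so the value moves with that choice. From TPM rescaled without mitochondrial genes, with 0.5 added to each value, the ratio was 5.64 for KEAP1 and 9.25 for ME1.

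Per length, by the authors' deposited TPM rescaled without mitochondrial genes, NQO1 was the most abundant of the 9 mRNAs in every library, at 231 TPM with LC3B, 148 with IgG, 250.5 in the LC3B input and 261 in that of IgG. NFE2L2 came next in each library, at 42.0, 44.6, 80.5 and 81.9 TPM in the same order. Below it TXNRD1, GCLM and SRXN1 lay between 28.7 and 46.7 TPM in all libraries. Their order changed between the inputs (GCLM above SRXN1 in the IgG input, below it in the LC3B input), so it is not settled. KEAP1 was the fourth with LC3B, at 31.5 TPM, and the eighth in both inputs, at 16.6 and 15.8 TPM in the LC3B and IgG inputs. GCLC was lowest with LC3B, at 7.31 TPM, and in the inputs, at 9.36 TPM (LC3B) and 7.32 TPM (IgG). HMOX1 had 20.4 TPM with LC3B and was listed at 0 with IgG, against 20.8 and 21.2 TPM in the LC3B and IgG inputs. ME1 had 11.6 TPM with LC3B and 0.723 with IgG, against 22.2 and 20.7 TPM in the LC3B and IgG inputs.

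For each member the nearest gene was sought by Euclidean distance of log2(CPM + 0.5), centred per gene, over the 4 libraries and 9384 genes of at least 10 CPM. Each member had a gene within a distance of 0.0785, and none of these was another member. The nearest to HMOX1 was CPOX, with 280 reads with LC3B, 0 with IgG, 207 in the LC3B input and 223 in that of IgG. KEAP1 was nearest to DGCR2 (338, 24, 140 and 135 reads in the same order) and ME1 to PARP16 (207, 10, 307 and 284 reads). NFE2L2 was nearest to FBXO45, NQO1 to BTF3L4, GCLM to ANXA4, GCLC to ZFP36L2, TXNRD1 to HIGD2A and SRXN1 to DMAC2. Among the members the closest were GCLM and TXNRD1, at a distance of 0.259, and the nearest member to HMOX1 was ME1, at 1.51. With 4 libraries, likeness of this kind describes the libraries only.

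Other NRF2 targets were called at shares near those of all genes. Of 36 further targets, 29 passed the filter, and the 7 left out (ABCC2, GPX2, ALDH3A1, CBR3, AKR1B10, AKR1C1 and AKR1C2) had at most 14 reads in any library. With LC3B over IgG 9 of 29 were higher, or 31.0% (33.8% of all genes), and 2 lower, or 6.90% (9.45% of all genes). Their median log2 ratio was 0.16, against 0.41 over all genes. With IgG over input 9 were lower, or 31.0% (33.6% of all genes), and 4 higher, or 13.8% (9.69% of all genes), with a median of -0.31 against -0.43. Over the LC3B input 0 were higher (1.4% of all genes) and 2 lower, or 6.90% (4.48% of all genes), with a median of -0.09 against 0.01. Between the inputs 0 of 29 were called (0.136% of all genes higher and 0.156% lower).

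In glutathione supply and export, 4 of 7 targets were higher with LC3B than with IgG (33.8% of all genes). The same number were lower with IgG than in its input (33.6% of all genes). Over the LC3B input 0 of 7 were called, where 1.4% of all genes were higher and 4.48% lower. SLC7A11, the cystine importer, had 244 reads with LC3B and 1 with IgG, against 208 and 161 in the LC3B and IgG inputs. That gives a fold of 231 between the pull-downs with a wide interval (41.1 to 9162). GSR, glutathione reductase, was higher at 3.60 (2.95 to 4.42), and the exporters ABCC4 and ABCC1 at 40.2 (10.8 to 338) and 22.3 (5.83 to 189), with 2 reads each with IgG. GSS, glutathione synthetase, was instead higher with IgG than in its input, at 2.17 (2.02 to 2.33).

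In NADPH supply, PGD, of the pentose phosphate pathway, was higher with LC3B than with IgG at 3.35 (3.07 to 3.67). PGD had 2292 reads with LC3B and 647 with IgG, against 1433 and 1494 in the LC3B and IgG inputs. Of the thioredoxin and peroxiredoxin group (TXN, PRDX1 and PRDX6), 0 of 3 were called in any comparison. Of all genes, 33.8% were higher and 9.45% lower between the pull-downs, and 3 genes are few to set against these shares. Of the 5 carbonyl and xenobiotic enzymes that passed the filter, EPHX1 was higher with LC3B than with IgG at 12.5 (6.59 to 26.7). CYP4F11 was also higher, at 10.7 with 3 reads in place of its 0 with IgG, and its interval started at 8.26. CBR1 was higher with IgG than in its input, at 2.38 (2.12 to 2.68). OSGIN1, with 148 reads with LC3B and 0 with IgG, was 46.7-fold higher with 3 reads in place of the 0. Its interval started at 37.5. TRIM16L was higher with IgG than in its input, at 2.69 (2.32 to 3.11).

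Of 5 iron and haem genes, 2 were lower with LC3B than with IgG (9.45% of all genes) and 0 higher (33.8% of all genes). These were the ferritin mRNAs FTL and FTH1, at 0.171 (0.168 to 0.173) and 0.302 (0.298 to 0.306). Both were also lower than the LC3B input, at 0.348 (0.343 to 0.354) and 0.409 (0.403 to 0.415). They were the 2 targets called over the LC3B input. BLVRB, a biliverdin reductase, was higher with IgG than in its input, at 2.16 (2.002 to 2.33), and was not called between the pull-downs.

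Of 16 pathway regulators, 4 were higher with LC3B than with IgG, or 25.0% against 33.8% of all genes, and 0 lower. Their median log2 ratio was 0.09, against 0.41 over all genes. Over the LC3B input 0 were called, where 1.4% of all genes were higher and 4.48% lower. The 4 were BACH1, a repressor that competes with NRF2 at AREs, at 32.5 (15.5 to 81.6), the coactivator EP300 at 18.9 (8.95 to 48.0), the NRF2 relative NFE2L1 at 9.36 (6.88 to 13.0) and the kinase GSK3B at 3.64 (3.19 to 4.16). All 4 were lower with IgG than in its input, or 25.0% against 33.6% of all genes. There MAFK and SYVN1 were higher, at 3.68 (2.32 to 6.08) and 3.19 (2.12 to 4.95), or 12.5% against 9.69% of all genes. SQSTM1 had 4507 reads with LC3B, 2387 with IgG, 3105 in the LC3B input and 3029 in that of IgG. Its fold was 1.79 between the pull-downs (1.70 to 1.88), 1.20 over the LC3B input (1.14 to 1.25) and 0.674 over the IgG input (0.639 to 0.712), all uncalled.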

How the data were processed

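The authors deposited raw read counts per Ensembl gene and TPM values for 4 libraries, per the file headers, with digits grouped by commas that were removed here. After that each count was a whole number. The submitters' processing notes name cutadapt (2.8), STAR (2.7.1a) and hg38; which tool counted reads, whether strand was used, and the annotation and lengths behind TPM, is not given in the sources used here.

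Counts were scaled by library totals without mitochondrial genes, and a mean of 1 CPM over the 4 libraries was required (15431 genes). Folds have exact conditional binomial (Clopper-Pearson) 95% intervals, and the input-corrected ratio, with 0.5 added to each count, a log-normal one. PCR reads without molecular identifiers are not independent molecules, so intervals and floors (3 reads) cover counting error only. With 1 library per group no count model was fitted. The interval code was tested on simulated data. The first criterion, a fixed minimum of coverage in each fold class, failed in 1 class and was then replaced by a binomial test against the nominal level, which all classes passed. Python 3.11.15 with numpy, pandas and scipy 1.17.1 was used.

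Named genes were the 9 members, list genes called in at least 1 comparison, SQSTM1, FTL and FTH1, and the nearest gene of each member, with further names given only to list what was searched, filtered or uncalled. Some list and marker genes enter the counts of their lists and are not reported here by name. Members and lists were chosen with earlier results of these data known. Alternatives were other totals, TMM and median-of-ratios scaling from their published definitions, TPM, other filters, bounds and pseudocounts, and thinning.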

Additional observations from a re-analysis of the deposited data

Results flagged for a closer look

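KEAP1 and 9 of the other named genes had folds over input on opposite sides of 1 in the LC3B and IgG pull-downs, with both counting intervals off 1. The difference was not tested across samples, since each group is 1 library. KEAP1 was above its input with LC3B and below it with IgG, with an input-corrected ratio of 13.4 (9.42 to 19.1). The same direction was seen for OSGIN1 at 221 (fitted with 0.5 added to 0 reads, 36.7 with 3 reads in place of the 0), EP300 at 20.1, EPHX1 at 9.83, NFE2L1 at 8.41, GSK3B at 4.05, PGD at 3.55 and SQSTM1 at 1.77. The opposite direction, below input with LC3B and above it with IgG, was seen for FTL at 0.186 and FTH1 at 0.327.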

How the results depend on the processing

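No paired analysis was possible because each group holds 1 library, and no replicate could be left out for the same reason. The counts of the 9 genes called kept within 1.5 times of their main value under the other settings, except over the LC3B input. There 1 gene, KEAP1, was called higher with totals over all genes and with a point fold without interval, where the main setting called 0. Of 449 single folds recomputed, 445 kept their call. On the other side of 1 lay 16 of them, 0 of which were called. Among them were the folds of TXNRD1 from TPM rescaled without mitochondrial genes. Others were those of NQO1, GCLM and SRXN1 over the LC3B input with totals over all genes (1.17, 1.24 and 1.24). The calls of GCLC between the pull-downs and in the input-corrected ratio were lost with bounds of 4 and 0.25. Deposited TPM, rescaled in the same way, moved KEAP1 to 6.41 between the pull-downs, to 0.311 over the IgG input and to 5.64 in the input-corrected ratio. It moved ME1 to 9.25, against 14.5, and HMOX1 to 42.5, against 575, in that ratio, values that depend on the 0.5 added. Counts over all genes moved more. Totals over all genes gave 886 higher and 261 lower over the LC3B input, against 216 and 691, and moved the median log2 ratio of all genes there to 0.32, against 0.01. Over the IgG input they gave 2364 higher, against 1495, and a median of -0.10, against -0.43. With a filter of 5 CPM, 2923 genes were higher between the pull-downs, against 5219, and 2974 lower over the IgG input, against 5185. Genes of at least 100 CPM, a band drawn after seeing the data, held 197 higher and 166 lower between the pull-downs. With bounds of 4 and 0.25, the LC3B comparison with its input had 13 genes higher and 35 lower. Ranks of TPM cannot change between rescaled and deposited values, by construction. Low counts limit the IgG pull-down values of HMOX1, ME1, GCLC and KEAP1, which rest on 0, 23, 35 and 44 reads.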
